A study of Mus musculus with 12 samples.

Results

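The CD300 receptors of airway eosinophils were examined in 8 genes, Cd300a, Cd300c2, Cd300lb, Cd300ld, Cd300ld2, Cd300ld3, Cd300lf and Cd300lg, chosen as the rows of the deposited count table that carry these symbols. All 8 were found among the 39666 genes of the table, and 7 had enough counts to be tested. TREM-1+ eosinophils (6 libraries) were compared with TREM-1- eosinophils (6 libraries), both sorted from each of 6 pooled lung lavages. The sort gate took Siglec-F+ CD11b+ CD45+ cells of high side scatter whose Ly6G and CD11c were low or intermediate. TREM-1 is an activating receptor of myeloid cells. Both fractions came from wild-type C57BL/6 mice aged 8 to 12 weeks with allergic airway inflammation. The mice had received 20 µg ovalbumin with 4 mg alum on day 0 and on day 7, breathed 1% ovalbumin mist for 40 minutes on each of days 16 to 18, and were harvested on day 19. No library of unexposed mice was analysed here, and each lavage pooled animals. No label states that different mice went into each lavage, and the p-values therefore cover the spread among the 6 lavages, which may be partly technical.

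CD300 proteins are surface receptors with a single immunoglobulin domain, and several of them bind lipids. The inhibitory members, CD300a and CD300lf, carry tyrosine motifs in a long tail (ITIMs) that recruit phosphatases such as SHP-1. The activating members have a short tail and signal through adaptor proteins with their own tyrosine motifs, DAP12 (gene Tyrobp) or the Fc receptor gamma chain (gene Fcer1g). TREM-1 also signals through DAP12. In mouse eosinophils CD300a and CD300lf are known as regulators of allergic responses, and CD300lf has been described as a partner of the interleukin 4 receptor.

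Cd300lf and Cd300ld3 were lower in TREM-1+ eosinophils in all 6 lavages with TMM scaling and did not overlap between the fractions. Cd300ld was lower and Cd300c2 higher by small amounts, and Cd300a, Cd300lb and Cd300lg did not pass the test. Over all 18302 genes tested, 9.82% were called at an edgeR adjusted p below 0.05, 6.72% lower and 3.1% higher. Of the 7 members tested, 3 were called lower and 1 higher. The median log2 fold change (TREM-1+ over TREM-1-) was -0.08 over the 7 members and 0.004 over all tested genes. With TMM scaling, TREM-1+ and TREM-1- libraries did not overlap in Cd300lf and Cd300ld3, 2 of the 7, beside 0.951% of all genes tested. The same 2 were lower in 6 of 6 pairs, beside 8.31% of all genes. With library totals alone as the scaling, 2 members were lower, beside 2.05% of all genes, and 1 was higher, beside 10.3%. Without the lavage as a block 1 member was lower, beside 0.306% of all genes.

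Levels are given as CPM, counts scaled to a common library size with TMM factors. In bulk libraries fewer cells of a type and less RNA per cell cannot be told apart.

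**Figure D1:**
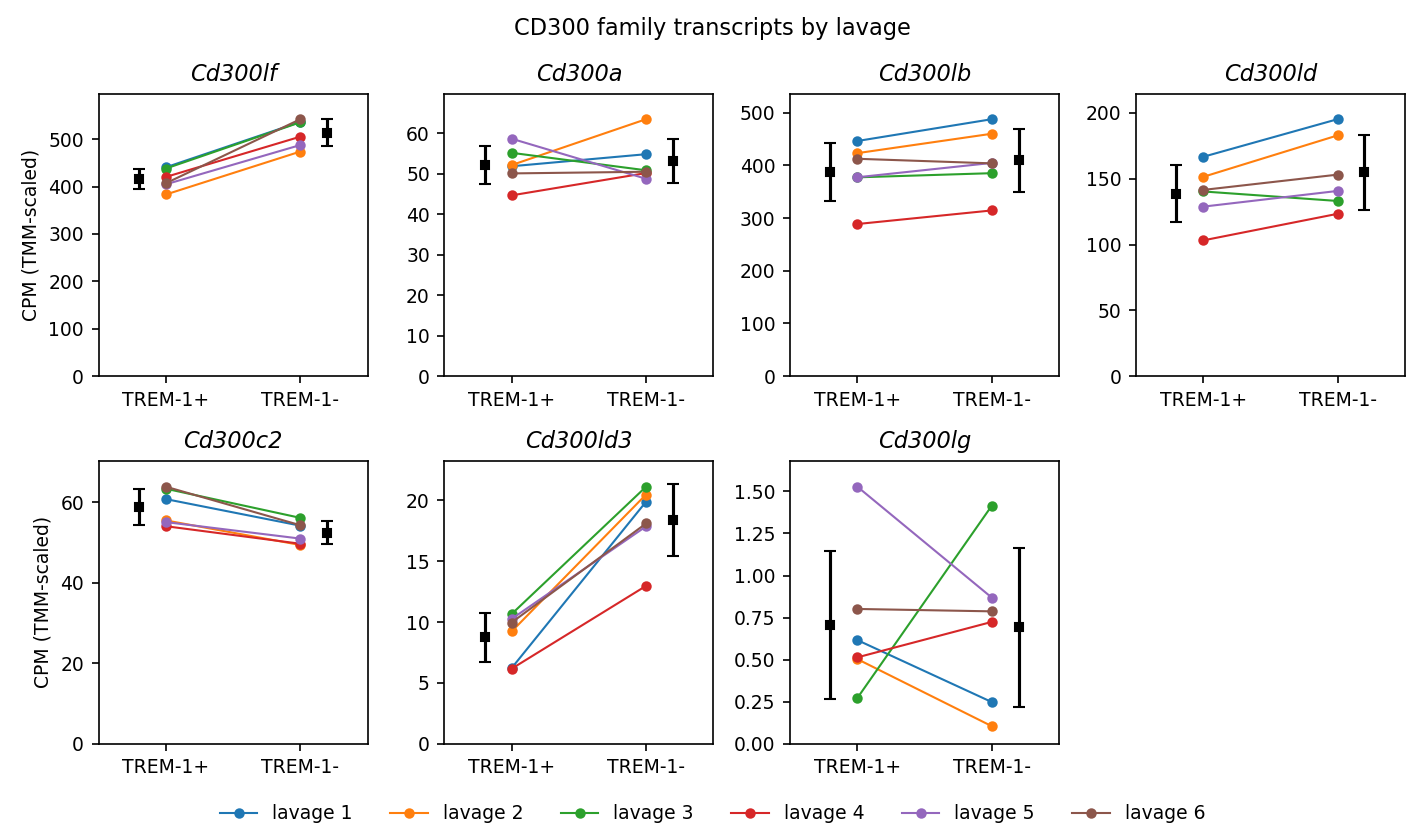
CPM of 7 CD300 members (y axis, linear from 0) in the TREM-1+ and TREM-1- library of each lavage (x axis). Lines join the libraries of a lavage, and black squares with bars are the mean and SD of 6 libraries. Every line of Cd300lf and Cd300ld3 climbs towards TREM-1- (with library totals alone the Cd300lf line of lavage 4 would not), and every line of Cd300c2 descends.

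The fractions were checked by Trem1, which encodes the sorted antigen. It averaged 93.1 ± 20.0 CPM in TREM-1+ libraries, against 30.7 ± 8.12 CPM in TREM-1- libraries (SD, n = 6 each) and was higher in 6 of 6 pairs. Library totals ran from 8626701 to 19274912 counts in TREM-1+ and from 16513387 to 21234053 in TREM-1- libraries, and the TREM-1+ library was the smaller of the pair in 6 of 6 lavages. The 2 libraries of lavages 1 and 2 were far closer to each other than those of other lavages, with a chi-square per gene of 6.88 in TREM-1+ and 5.26 in TREM-1- against 20.6 to 191 for the others. Whether these are independent pools is uncertain.

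Cd300lf (NCBI gene 246746), the inhibitory receptor for ceramide and sphingomyelin, was the most abundant member per kilobase of the longest coding transcript in both fractions. In TREM-1+ libraries it had at lowest 383, at the median 414 and at highest 441 CPM, against 474, 520 and 542 CPM in TREM-1- libraries. With TMM scaling the highest TREM-1+ library lay below the lowest TREM-1- library. With library totals alone the ranges overlapped. Lavage 4 TREM-1+ had 4094 of 8626701 counts, a larger share than the 9116 of 20353181 in lavage 2 TREM-1-. The mean was 416 ± 21.9 CPM in TREM-1+ libraries, against 513 ± 28.8 CPM in TREM-1- (SD, n = 6 each). The fold change on the log2 scale amounted to -0.30 ± 0.03 (SE, edgeR adjusted p = 2.52e-08), rank 118 of 18302 genes by p. The paired log2 differences lay between -0.41 and -0.27, with lavage 6 apart from the others at -0.41. Among all tested genes 0.656% had TREM-1+ libraries wholly below the TREM-1- libraries. With library totals alone the log2 fold change shrank to -0.18 (edgeR adjusted p = 0.00688) and the paired difference of lavage 4 turned to 0.03, while the median of all genes then moved by 0.13. Without the lavage as a block the call was lost (edgeR adjusted p = 0.123).

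Cd300a (NCBI gene 217303), the inhibitory receptor for phosphatidylserine and phosphatidylethanolamine, had 44.7 CPM at lowest, 52.0 at the median and 58.6 at highest in TREM-1+ libraries, against 48.7, 50.7 and 63.5 CPM in TREM-1- libraries. The ranges overlapped and 4 of 6 pairs were lower. The mean was 52.1 ± 4.73 CPM in TREM-1+ libraries, against 53.1 ± 5.47 CPM in TREM-1- (SD, n = 6 each), with a log2 fold change of -0.03 ± 0.06 (SE, edgeR adjusted p = 0.892). Its sign turned with library totals alone as the scaling (0.10) and in lavages 3 to 6 alone (0.05). The change of Cd300a exceeded that of Cd300lf in 6 of 6 lavages, by 0.28 ± 0.20 on the log2 scale (SD, n = 6; exact two-sided sign-flip permutation test, p = 0.0312, the smallest that 64 sign patterns allow). That p takes the 6 lavages as independent pools, which is uncertain.

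Cd300lb (NCBI gene 217304), an activating receptor coupled to DAP12, was second in abundance per kilobase. It had 289, 395 and 446 CPM at lowest, median and highest in TREM-1+ libraries, against 314, 404 and 488 CPM in TREM-1- libraries. The mean was 387 ± 55.3 CPM in TREM-1+ libraries, against 409 ± 60.5 CPM in TREM-1-, 5 of 6 pairs were lower, and the fitted log2 fold change reached -0.08 ± 0.03 (SE, edgeR adjusted p = 0.159). Its sign turned with library totals alone (0.05).

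Cd300ld (NCBI gene 217305), an activating receptor that signals through the Fc receptor gamma chain, had 103, 141 and 167 CPM at lowest, median and highest in TREM-1+ libraries, against 123, 147 and 195 CPM in TREM-1- libraries. The ranges overlapped, and lavage 3 went the other way (0.08). The mean was 139 ± 21.5 CPM in TREM-1+ libraries, against 155 ± 28.6 CPM in TREM-1-, with a log2 fold change of -0.15 ± 0.04 (SE, edgeR adjusted p = 0.0157). The call was lost without lavage 1, 2 or 4 (edgeR adjusted p = 0.0994, 0.0866 and 0.0911), in lavages 3 to 6 alone (0.333), with library totals alone (-0.03, adjusted p = 0.773) and without the lavage block (0.906).

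Cd300c2 (NCBI gene 140497), an activating receptor that can use either adaptor, was the only member called higher. It had 54.0, 58.1 and 63.8 CPM at lowest, median and highest in TREM-1+ libraries, against 49.3, 52.5 and 56.1 CPM in TREM-1- libraries. Each TREM-1+ library lay above its own partner, but the ranges overlapped. The mean was 58.7 ± 4.42 CPM in TREM-1+ libraries, against 52.4 ± 2.80 CPM in TREM-1-, with a log2 fold change of 0.16 ± 0.05 (SE, edgeR adjusted p = 0.0421). The call held in 4 of 15 alternatives. It was lost without any single lavage (edgeR adjusted p = 0.05002 to 0.121), with no filter on low counts (0.0552) and without the block (0.712). The log2 fold change was 0.29 with library totals alone (edgeR adjusted p = 0.00181).

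Cd300ld3 (NCBI gene 382551), a relative of Cd300ld grouped here with the adaptor-coupled members by kinship, had the largest log2 fold change of the 6 members with at least 5 CPM. It had 6.16, 9.59 and 10.7 CPM at lowest, median and highest in TREM-1+ libraries, against 13.0, 19.0 and 21.1 CPM in TREM-1- libraries. The fractions did not overlap. The mean was 8.74 ± 2.04 CPM in TREM-1+ libraries, against 18.4 ± 2.96 CPM in TREM-1- (SD, n = 6 each), with a log2 fold change of -1.09 ± 0.12 (SE, edgeR adjusted p = 2.79e-08), rank 122 of 18302 by p. The paired log2 difference was deepest in lavage 1 (-1.67) and lay between -1.15 and -0.80 in the others. These depths may depend on how reads were divided among close copies. With Cd300ld3, Cd300ld4 and Cd300ld5 summed, lavage 1 had 15.1 CPM in TREM-1+ against 29.1 in TREM-1-. Lavage 2 then had the wider gap, at 13.3 against 31.1 CPM. Cd300ld3 was called in 15 of 15 alternatives, with an edgeR, limma or DESeq2 adjusted p of at most 0.00345.

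Cd300lg and Cd300ld2 were near the detection limit. Cd300lg (NCBI gene 52685), known as an adhesion receptor of endothelium, had 2 to 26 counts a library, with 0.705 ± 0.438 CPM in TREM-1+ libraries, against 0.691 ± 0.471 CPM in TREM-1- libraries. Its fitted log2 fold change reached 0.19 ± 0.51 (SE, edgeR adjusted p = 0.906), and its sign turned without lavage 1 (-0.01) or lavage 2 (-0.08). Cd300ld2 (NCBI gene 629970), another relative of Cd300ld, had 0 of 91670732 counts in TREM-1+ libraries, which allows up to 0.0316 CPM (3 counts over the group, counting error only), and 1 count in TREM-1- libraries, in lavage 2. It was not tested.

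**Figure D2:**
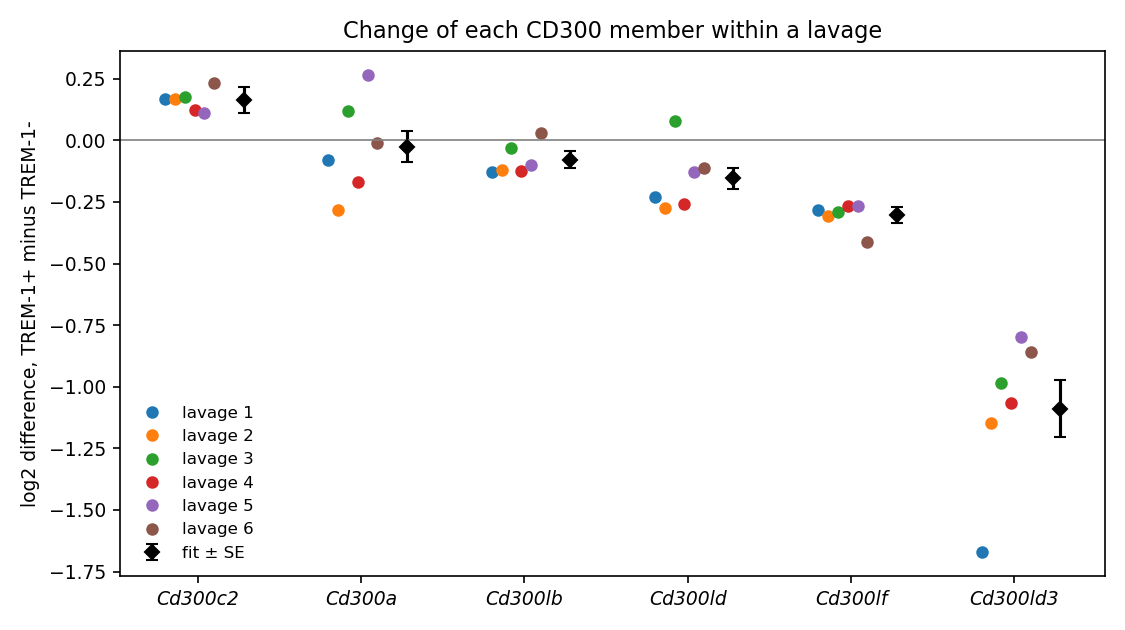
Log2 difference between the TREM-1+ and TREM-1- library of each lavage (y axis; coloured points) for 6 members, with the fitted log2 fold change and its SE (black diamonds). Cd300ld3 lies farthest below 0, Cd300lf lies below 0 in a narrow band, and Cd300c2 lies above 0 in all 6 lavages.

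Of the 15 pairs among the 6 members with at least 5 CPM, 11 passed a test for different changes. Each had p = 0.0312 (exact two-sided sign-flip permutation test), the smallest it can give, and 0.0426 when adjusted over the 15 pairs. This p needs 6 independent lavages, and whether all of them are independent pools is uncertain, as described above. With fewer independent lavages no pair could reach a p below 0.05 in this test. Cd300ld3 fell further than its relative Cd300ld by 0.93 ± 0.28 on the log2 scale (SD, n = 6 lavages), and further than each other member. The pairs with Cd300ld3 also depend on how reads were divided among its close copies. Cd300c2 exceeded Cd300lf by 0.47 ± 0.10. A scaling factor of a library cancels in these differences. The differences that did not pass were Cd300c2 minus Cd300a (-0.15 to 0.45 over lavages), Cd300a minus Cd300lb (-0.16 to 0.37), Cd300a minus Cd300ld (-0.01 to 0.39) and Cd300lb minus Cd300ld (-0.11 to 0.15).

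Per kilobase of the longest coding transcript (GENCODE vM21), the order of levels in TREM-1+ libraries was Cd300lf, Cd300lb, Cd300ld, Cd300c2, then Cd300a and Cd300ld3, then Cd300lg. These levels were 220.5 ± 11.6, 134.5 ± 19.2, 52.4 ± 8.14, 49.5 ± 3.72, 11.2 ± 1.02, 10.3 ± 2.39 and 0.258 ± 0.160 CPM per kb (SD, n = 6). In TREM-1- libraries the same genes had 272 ± 15.3, 142 ± 21.0, 58.5 ± 10.8, 44.1 ± 2.35, 11.4 ± 1.18, 21.6 ± 3.47 and 0.252 ± 0.172 CPM per kb. Cd300ld and Cd300c2, and Cd300a and Cd300ld3, lay within their spread of each other in TREM-1+ libraries. In TREM-1- libraries Cd300ld3 stood above Cd300a. Cd300lf made up 46.2% of the family's summed CPM per kb in TREM-1+ and 49.6% in TREM-1- libraries. These levels and shares, and the sums and ratio that follow, depend on the length used. Cd300lf has 7 annotated transcripts and was divided by 1885 bases, Cd300lb by 2880, and the lengths expressed here are not known. In plain CPM Cd300lf and Cd300lb averaged 416 and 387 in TREM-1+, and 513 and 409 in TREM-1- libraries.

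The inhibitory members summed to 232 ± 11.6 CPM per kb in TREM-1+ and 284 ± 14.8 in TREM-1- libraries, and the activating members to 247 ± 29.8 in TREM-1+ and 266 ± 34.4 in TREM-1- (SD, n = 6 each). Both sums were lower in 6 of 6 pairs with TMM scaling. With library totals alone, an alternative added after seeing the data, the inhibitory sum was lower in 5 of 6 pairs and the activating sum in 3 of 6. The ratio below does not depend on the scaling of a library. The ratio of inhibitory to activating sums was 0.886, 0.820, 0.977, 1.21, 0.955 and 0.865 in TREM-1+ libraries of lavages 1 to 6, against 0.950, 0.900, 1.15, 1.31, 1.05 and 1.13 in TREM-1-. The ratio was lower in the TREM-1+ library of every lavage, at 0.952 ± 0.140 against 1.08 ± 0.149 (SD, n = 6 each). Cd300lf makes up nearly all of the inhibitory sum, and the ratio is a description with no test.

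**Figure D3:**
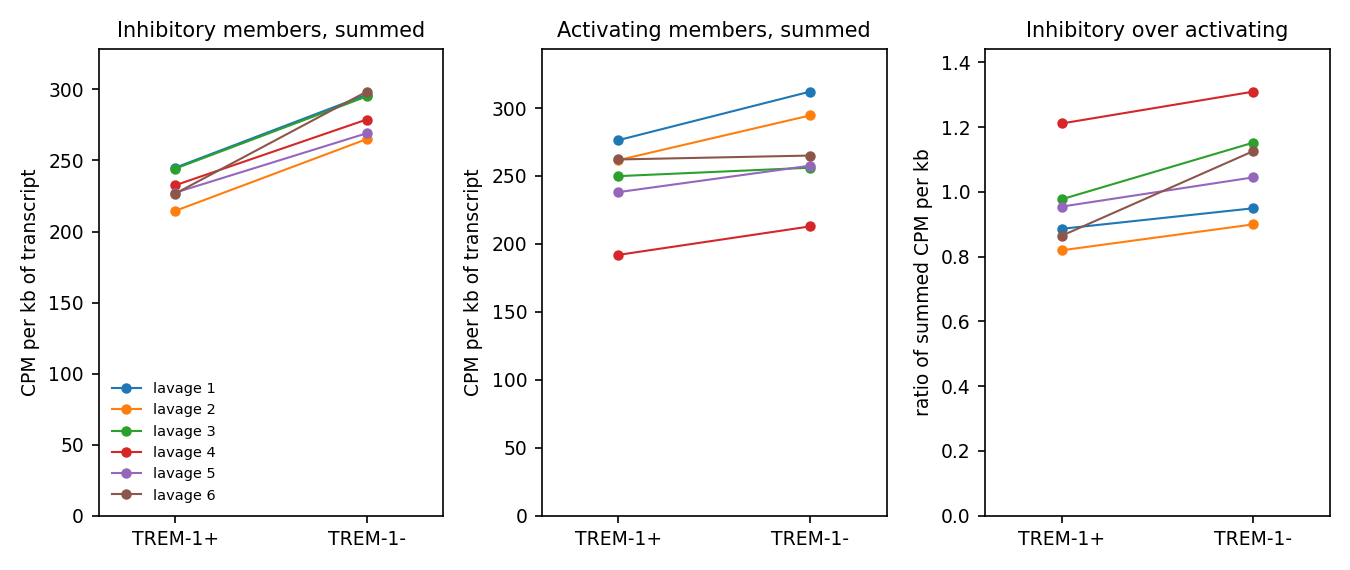
Summed CPM per kb of the inhibitory members (left) and activating members (middle), and their ratio (right), in TREM-1+ and TREM-1- libraries. Lines join the libraries of a lavage, with TMM scaling. Every line lies lower at TREM-1+, but with library totals alone 1 of the 6 inhibitory lines and 3 of the 6 activating lines would lie higher there.

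Members differed in how much the lavages set them apart. Of the variance in log2 CPM, the lavage accounted for 94.3% in Cd300lb and 83.5% in Cd300ld, for 49.8% in Cd300c2 and 47.3% in Cd300a, and for 16.3% in Cd300ld3 and 16.1% in Cd300lf, beside 65.1% in the median gene. The fraction accounted for 81.7% in Cd300lf and 78.3% in Cd300ld3, against 5.07% in the median gene. Lavage 4 was lowest for Cd300lb, Cd300ld and Cd300ld3 in both fractions, and lavages 1 and 2 were highest for Cd300lb and Cd300ld.

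7 of the members lie in a cluster on chromosome 11, and Cd300lg lies elsewhere on that chromosome. The close copies Cd300ld3, Cd300ld4 and Cd300ld5 share most of their sequence. Only 15.9% of the 31-base words of Cd300ld3 are its own, as 84.1% also occur in Cd300ld5 and 80.6% in Cd300ld4, so its value is uncertain as to which copy the reads came from. Cd300ld5 has 0% and Cd300ld4 3.77% words of its own, while Cd300lf has 95.3%, Cd300ld 93.4%, Cd300a 91.8%, Cd300c2 87.7% and Cd300lb 100%. The sum of the 3 copies, an alternative chosen after seeing the data, averaged 14.9 ± 1.94 CPM in TREM-1+ libraries, against 25.3 ± 4.53 CPM in TREM-1- libraries (SD, n = 6 each). It was lower in 6 of 6 pairs, with a log2 fold change of -0.76 ± 0.10 (SE, edgeR adjusted p = 9.13e-07).

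**Figure D4:**
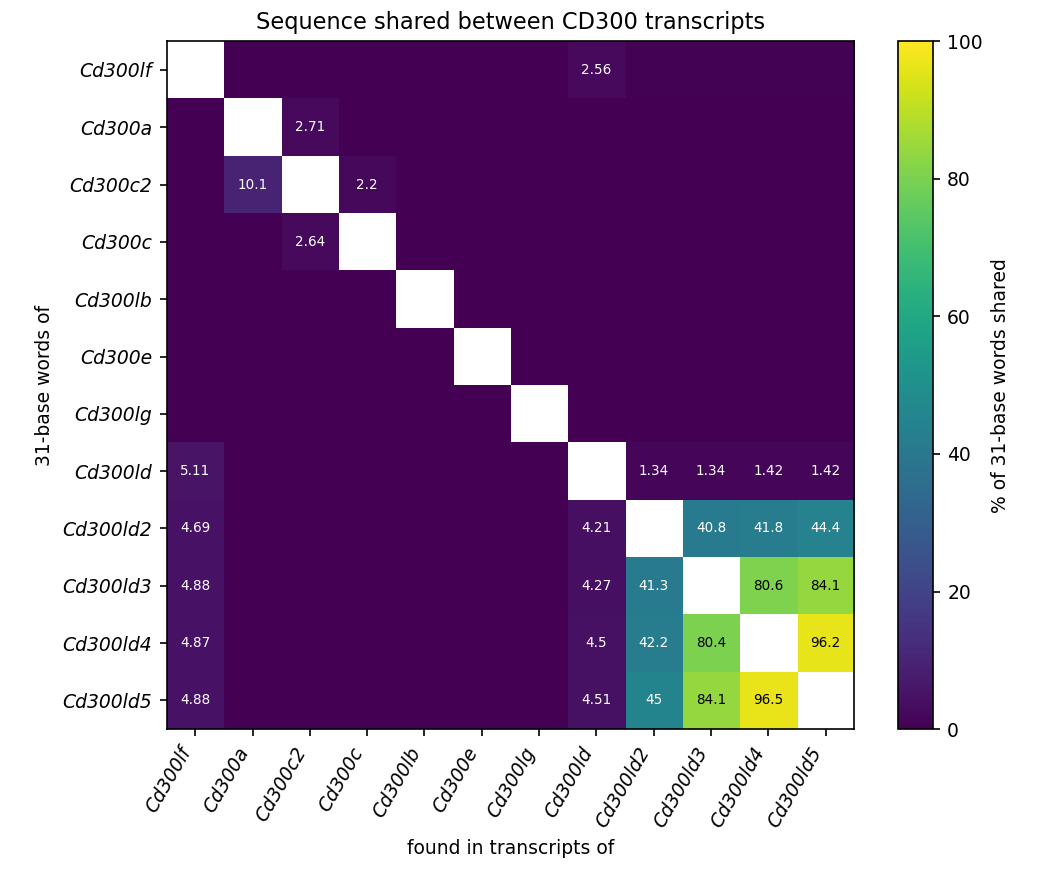
Share of the 31-base words of each CD300 gene (rows) that also occur in the transcripts of another (columns), in percent, from GENCODE vM21. Cd300ld3, Cd300ld4 and Cd300ld5 form a block of high sharing, while Cd300lf, Cd300a, Cd300c2 and Cd300lb share little.

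Bases before the start are shown for the 2 members that did not overlap between fractions with TMM scaling, and for 2 relatives. They are from RefSeq (GRCm38.p6, 250 bases, 5′ to 3′). Whether Cd300ld3 and Cd300ld4 changed by different amounts was not tested, and their reads are uncertain as to copy. Capitals mark the motif GAGGAAGT, of the PU.1 and ETS type.
Cd300ld3, chr11:115048331-115048580, minus strand: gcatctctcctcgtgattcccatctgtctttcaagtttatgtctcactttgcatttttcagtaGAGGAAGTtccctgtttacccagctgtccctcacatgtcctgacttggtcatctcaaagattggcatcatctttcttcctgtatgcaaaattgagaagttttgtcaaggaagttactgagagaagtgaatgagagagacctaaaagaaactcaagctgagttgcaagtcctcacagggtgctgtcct
Cd300ld4, chr11:115026934-115027183, minus strand: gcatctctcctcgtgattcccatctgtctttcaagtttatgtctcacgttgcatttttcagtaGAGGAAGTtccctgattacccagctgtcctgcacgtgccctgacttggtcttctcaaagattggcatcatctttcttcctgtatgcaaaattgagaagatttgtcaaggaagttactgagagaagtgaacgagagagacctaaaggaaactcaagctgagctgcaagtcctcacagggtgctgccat
Cd300ld, chr11:114989887-114990136, minus strand: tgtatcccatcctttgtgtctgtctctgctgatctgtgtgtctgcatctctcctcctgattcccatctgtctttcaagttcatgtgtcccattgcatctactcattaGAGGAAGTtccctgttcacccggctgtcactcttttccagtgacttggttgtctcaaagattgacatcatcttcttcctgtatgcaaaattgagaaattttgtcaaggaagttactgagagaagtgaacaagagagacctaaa
Cd300lf, chr11:115133993-115134242, minus strand: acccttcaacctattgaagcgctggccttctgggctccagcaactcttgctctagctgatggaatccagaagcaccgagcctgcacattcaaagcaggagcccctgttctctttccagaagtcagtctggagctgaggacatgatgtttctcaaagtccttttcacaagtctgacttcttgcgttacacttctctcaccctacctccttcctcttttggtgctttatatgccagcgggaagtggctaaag
Cd300ld3 and Cd300ld4 were identical at 237 of 250 bases (94.8%). Cd300ld3 and Cd300ld had 185 identical bases over 296 alignment columns (62.5%), and these columns include gaps. The motif lies at different distances from the start in these 2 windows, so the 2 percentages do not compare like with like. Searched on both strands, GAGGAAGT occurred in Cd300ld3, Cd300ld4 and Cd300ld5, 187 bases before the start, and in Cd300ld, 143 bases before it. It occurred in 2.44% of 32851 promoters of the same length. Cd300lg and Cd300ld2 were not among the genes searched. Of the other members, Cd300lf and Cd300lb held none of the 5 motifs. These were GAGGAAGT, the interferon-stimulated response element, the STAT type TTCNNNGAA, the C/EBP type TTGCNNAA and the GATA type AGATAA. The other 4 occurred in 2.98%, 7.02%, 9.56% and 9.99% of promoters in that order, and of these TTGCNNAA was found in Cd300a and AGATAA in Cd300c2. Of the cluster's CD300 genes outside the 8, Cd300c held the interferon-stimulated type and Cd300e held TTCNNNGAA and AGATAA. A shared motif is a description, and the copies share most of these letters in any case.

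Of the 12 other genes in the cluster or within 3 genes of it, 6 were tested. Of these, 3 were called lower, beside 6.72% of all genes tested. Rab37, which encodes a small GTPase of secretion, overlaps Cd300lf on the opposite strand with no shared exon bases, and had a log2 fold change of -0.20 ± 0.06 (SE, edgeR adjusted p = 0.0386). Use of strand in counting is not stated in the sources used here. Nherf1, a scaffold protein gene (-0.23, edgeR adjusted p = 0.000127), and Tmem104 (-0.11, edgeR adjusted p = 0.0451) were also lower. The calls of Rab37, Nherf1 and Tmem104 held in 8, 13 and 3 of 15 alternatives. Cd300ld4 (0.26, edgeR adjusted p = 0.606) and Cd300ld5 (-0.77, edgeR adjusted p = 0.133) did not pass, and Cd300c and Cd300e were too low to test. Of the 142 tested genes in the longer stretch between Cd300lg and the cluster, 2 were higher and 7 lower. Among all genes tested, 3.1% were higher and 6.72% lower.

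Of 28 genes of the receptors' signalling path, all tested, 13 were lower and 3 higher in TREM-1+ eosinophils, beside 6.72% and 3.1% of all genes, with a median log2 fold change of -0.11. With library totals alone as the scaling, 4 were lower and 7 higher, beside 2.05% and 10.3% of all genes. Among adaptors, Tyrobp averaged 428 ± 104 CPM in TREM-1+ libraries, against 502 ± 127 CPM in TREM-1- (SD, n = 6 each), lower in 6 of 6 pairs (-0.23 ± 0.04, SE, edgeR adjusted p = 1.58e-05), a call lost with library totals alone (-0.10, adjusted p = 0.110). Fcer1g (-0.04, edgeR adjusted p = 0.657) and Hcst, which encodes DAP10 (0.02, edgeR adjusted p = 0.945), did not pass.

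Of 5 Src and Syk family kinases, 3 were lower and 1 higher. Lyn averaged 369 ± 26.9 CPM in TREM-1+ libraries, against 451 ± 35.3 CPM in TREM-1- (SD, n = 6 each; -0.29 ± 0.03, SE, edgeR adjusted p = 1.09e-07) with no overlap between the fractions. Fgr was higher (0.11 ± 0.03, edgeR adjusted p = 0.0387). Of the phosphatases, Inpp5d, which encodes SHIP-1, was lower (-0.24 ± 0.03, edgeR adjusted p = 1.16e-06). Ptpn6, which encodes SHP-1 (-0.06, edgeR adjusted p = 0.394), and Ptpn11, which encodes SHP-2 (0.06, edgeR adjusted p = 0.622), did not pass. Of 15 effectors, 7 were lower and 2 higher. Vav3, an exchange factor, was lower (-0.41 ± 0.05, edgeR adjusted p = 1.23e-07) in all 15 alternatives. Plcg1, phospholipase C gamma 1, was higher (0.54 ± 0.13, edgeR adjusted p = 0.00303), but not in lavages 1 and 2 alone (0.515) or without lavages 3 and 4 (0.0874). It was low, at a mean of 14.2 CPM in TREM-1+ and 9.35 in TREM-1- libraries. The far more abundant Plcg2 (named after its values were seen) averaged 444 CPM in TREM-1+ and 484 in TREM-1-. Plcg2 was called lower (-0.12, edgeR adjusted p = 0.0113), a call that held in 9 of 15 alternatives. Cblb, a ubiquitin ligase, was higher (0.21 ± 0.07, edgeR adjusted p = 0.0439), and the calls of Cblb and Fgr held in 6 of 15 alternatives each. With library totals alone Lyn was at -0.16 and still called, and Inpp5d was not called (-0.12, edgeR adjusted p = 0.0684). Of the 2 receptor partners, Il4ra, named after its values were seen, was lower (-0.23, edgeR adjusted p = 1.25e-05), but not with library totals alone (-0.11, adjusted p = 0.118). The other, Csf2rb, did not pass (-0.07, edgeR adjusted p = 0.120). Without the lavage block, 1 of the 28 was lower and 0 higher.

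**Figure D5:**
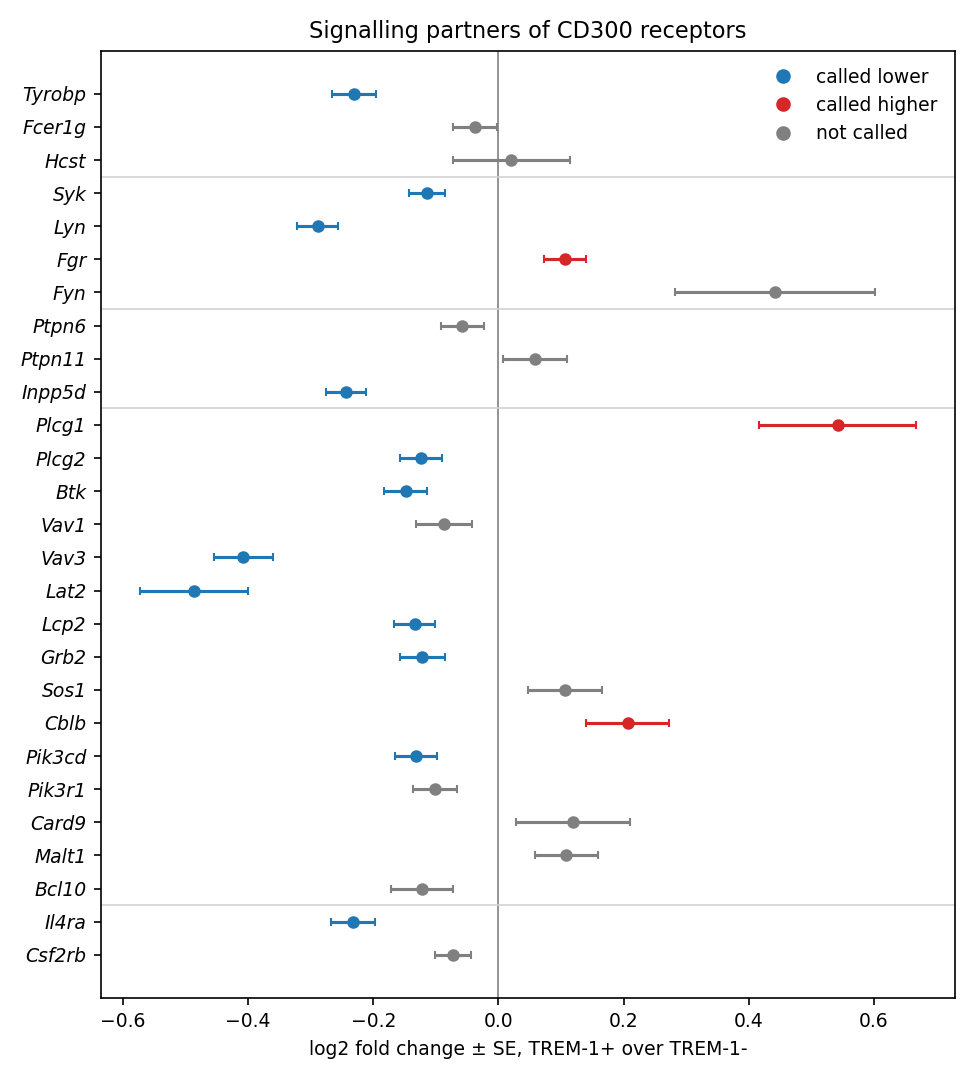
Log2 fold change and SE (x axis) of the signalling genes reported here (y axis), coloured by call, with grey lines between the groups of genes. Most called genes lie left of 0, from Lat2 at -0.49 to Syk at -0.11, with Plcg1, Cblb and Fgr to the right.

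Of 9 genes for phosphatidylserine receptors of other families, 6 were tested and 1 was higher, beside 3.1% of all genes tested. This was Axl (named after its values were seen), higher in 5 of 6 pairs (1.03 ± 0.22, SE, edgeR adjusted p = 0.00183). Axl was low and spread widely, at 0.924 to 13.9 CPM in TREM-1+ and 0.297 to 12.6 in TREM-1- libraries.

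By root-mean-square distance between centred log2 CPM profiles over the 12 libraries, the genes most like Cd300lf were Ppp1r12c (0.0760), a myosin phosphatase subunit gene, Arhgap45 (0.0764) and Pstpip1 (0.0781), which encodes an adaptor of the actin cytoskeleton, against a median of 0.283 over 10961 genes. Those most like Cd300ld3 were Slpi (0.287), which encodes a leukocyte protease inhibitor, Tesc (0.315) and Tmem119 (0.319), against a median of 0.650.

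Markers of other cells were followed in the same libraries. The counts of calls in each list stand beside 3.1% higher and 6.72% lower among all genes tested. Of 12 eosinophil markers, all tested, 3 were higher and 7 lower, and their sum (9519 to 14563 CPM in TREM-1+, 10710 to 15953 in TREM-1-) was lower in 6 of 6 pairs, but in 3 of 6 with library totals alone. The alveolar macrophage list (5 of 9 tested higher, 0 lower; sums 442 to 1026 CPM in TREM-1+, 312 to 791 in TREM-1-) and the T and innate lymphoid list (7 of 9 higher, 0 lower; 9.39 to 118.7 CPM in TREM-1+, 8.11 to 61.1 in TREM-1-) had higher sums in 6 of 6 pairs under both scalings. In the alveolar macrophage list Ear2 was lower in 6 of 6 pairs without passing (edgeR adjusted p = 0.0505). Mrc1 and Chil3 were higher in 6 of 6 pairs without passing (edgeR adjusted p = 0.0829 and 0.0877). The neutrophil list had 7 of 8 higher and 1 lower, with sums of 1332 to 2225 CPM in TREM-1+ and 1545 to 2297 in TREM-1-, lower in 5 of 6 pairs (4 of 6 with library totals alone), and Elane at 0 in all libraries. The 1 lower was Retnlg (named after its values were seen), with a mean of 1244 CPM in TREM-1+ and 1603 in TREM-1-. Retnlg alone made up most of the neutrophil sum, which therefore does not follow the 7 genes called higher. The monocyte and interstitial macrophage list had 3 of 9 higher and 2 lower (1363 to 2110 CPM in TREM-1+, 1553 to 2261 in TREM-1-; sum lower in 6 of 6 pairs, and in 4 of 6 with library totals alone), and the dendritic cell list 2 of 9 higher and 0 lower (827 to 1149 CPM in TREM-1+, 903 to 1024 in TREM-1-; sum higher in 4 of 6 pairs, and in 6 of 6 with library totals alone). The mast cell and basophil list had 1 of 5 higher and 1 lower (82.7 to 101 CPM in TREM-1+, 78.5 to 118 in TREM-1-; sum higher in 4 of 6 pairs; Mcpt4 and Tpsb2 at 0). The B cell list (0 of 3 called; 9.39 to 17.6 CPM in TREM-1+, 9.60 to 16.0 in TREM-1-; sum higher in 3 of 6 pairs) and the endothelial and epithelial list (0 of 3 called; 202 to 272 CPM in TREM-1+, 215 to 296 in TREM-1-; sum lower in 5 of 6 pairs; Cdh5 at 0) had no call. Few genes, named after their values were seen, made up most of several other sums. Their mean CPM is given for TREM-1+, then TREM-1-. They were Car4 (318, 201) and Chil3 (305, 151) in the alveolar macrophage list, and Itgax (895, 908) in the dendritic cell list. In the monocyte list they were Adgre1 (875, 983) and Ly6c2 (540, 667), and in the endothelial list Pecam1 (209, 222). The part of these cell types in the CD300 values was not tested.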

How the data were processed

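RNA of TREM-1+ and TREM-1- eosinophils from 6 pooled lavages was sequenced as 100 bp paired ends, per the labels' protocols. The authors' deposited table gives estimated counts per gene. Tools listed in the submitters' processing notes are kallisto 0.45.0, edgeR 3.42.4 and R 4.3.0, and the build is GRCm39. Rounding left the counts, which are whole, as deposited. The deposited log2 CPM table (17934 genes, 7 members) was recomputed from the counts to within 5e-09. Of the per-sample columns, 0 were left unused.

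The test was that of edgeR 4.0.16 under R 4.3.3 (TMM, filterByExpr with a minimum count of 10 and total of 15, robust quasi-likelihood F test, lavage block), TREM-1+ over TREM-1-. Benjamini-Hochberg adjustment ran over 18302 genes and the threshold was 0.05. DESeq2 1.42.0 and limma 3.58.1 were alternatives, and the fit was tested on simulated data. Paired differences use log2 CPM with a prior count of 1.

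That the fractions of a lavage are paired is stated in the series' design. Within-pair correlations of deviations were 0.493, 0.502, 0.127, 0.368, 0.247 and 0.236 in lavages 1 to 6. Members and lists were chosen with earlier results of these data known. Named are all members, Trem1, 3 called partners with the smallest p each way (1 of which is not reported here), the adaptors and phosphatases, called or overlapping cluster genes, and 3 genes most like each of the 2 leading members. Genes of the cluster were counted around its 7 members, since Cd300lg lies far off. Sequences are from RefSeq (GRCm38.p6), which is not the authors' build. Library depth limits Cd300lg and Cd300ld2.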

Additional observations from a re-analysis of the deposited data

Results flagged for a closer look

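Of 20 sets of 6 values checked for a value apart from the rest, 1 was marked, and chance marks about 1 in 20. The paired log2 difference of Cd300lf in lavage 6 was -0.41, apart from the other 5 (-0.31 to -0.27). The gap took 0.726 of the whole range, above the 95% critical value of 0.625 for 6 values. The TREM-1+ library of lavage 6 (407 CPM) lay within the range of the other TREM-1+ libraries, and its TREM-1- partner (542 CPM) was the highest of its fraction.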

How the results depend on the processing

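Cd300ld3 kept its direction and call under all 15 alternatives, and Cd300lf under 14, the exception being the fit without the replicate block. Without that replicate block 1 member was lower and 0 higher, and 1 partner was lower and 0 higher. With library totals alone 4 partners were lower and 7 higher, and Cd300a (0.10) and Cd300lb (0.049) reversed sign, as did their mean paired differences (0.10 and 0.050), and the activating sum was lower in 3 pairs, not 6. The median of all genes moved by 0.13 there; relative to it Cd300lf was at -0.31, Cd300ld at -0.16, Cd300c2 at 0.16 and Cd300ld3 at -1.10. With no filter on low counts 0 members were higher. Leaving out each lavage gave 2 to 3 members lower and 0 to 0 higher, 10 to 13 partners lower and 1 to 2 higher. It gave log2 fold changes of -0.081 to 0.028 for Cd300a and -0.084 to 0.66 for Cd300lg. In lavages 1 and 2 alone 0 members and 1 partner were higher. In lavages 3 to 6 alone 0 members were higher and 7 partners lower, with Cd300a at 0.053 and Cd300lg at -0.40. Without lavages 3 and 4, 0 members and 1 partner were higher. The cause of these shifts was not tested. The planned protein identity and ITIM search was not run, as no protein table was used here.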
